A study of Macaca nemestrina with 15 samples.

Results

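Genes that respond to interferon gamma were followed in the peripheral blood mononuclear cells (PBMCs) of macaques given oral islatravir (ISL). A set of 9 such genes was chosen by name: *IRF1*, *CXCL9*, *CXCL10*, *IDO1*, *SOCS1*, *GBP1*, *GBP2*, *GBP4* and *GBP5*. The count table lists 28865 features, and 5 of the 9 genes have a row of their own name in it. The other 4, all guanylate-binding proteins, are not analysed here. Of the 5 genes with a row, *IRF1*, *CXCL10*, *IDO1* and *SOCS1* were among the 12880 features that passed the filter on low counts and were tested, and *CXCL9* was below it.

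The samples came from 5 female pig-tailed macaques (*Macaca nemestrina*), Z13076, Z15228, Z15303, Z15339 and Z15408, each sampled 3 times, which gave 15 libraries. ISL is a nucleoside reverse transcriptase translocation inhibitor of HIV, and the animals received a dose of 30 mg/kg by stomach tube each week, 12 weeks long. The groups are pre-treatment, week 12 of treatment and week 18, which the design text of the series places 6 weeks after the last dose, with 5 libraries in each. Every animal was treated after its first sample and no untreated group was followed over the same time, so time and treatment cannot be told apart. The dates carried in the library names place the second sample 56 or 57 days and the third 84 days after the first, which does not match weeks 12 and 18. The study's text also gives a shorter interval after the last dose in one place, and the labels' names are used. Z15303, Z15339 and Z15408 share their dates, and Z13076 and Z15228 each have their own. The libraries held 5610597 to 10379572 counts on genes, and the week 18 and week 12 libraries of Z15303 were the shallowest, at 5886482 and 5610597.

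Interferon gamma is a cytokine made mainly by activated T-cells and NK cells. It binds a receptor of the chains IFNGR1 and IFNGR2, whose kinases JAK1 and JAK2 start the signal that switches on the response genes. *IRF1* encodes a transcription factor that carries the response on to further genes. *CXCL9* and *CXCL10* encode chemokines that attract activated T-cells, *IDO1* encodes an enzyme that breaks down tryptophan, *SOCS1* encodes an inhibitor of the JAK kinases that ends the signal, and the guanylate-binding proteins act against microbes inside cells. In blood, monocytes and dendritic cells are strong responders. Type I interferons switch on many of the same genes.

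None of the 4 tested genes passed an adjusted p of 0.05 at week 12, at week 18 or between these, with or without the animal as a block in edgeR's quasi-likelihood test. *CXCL10* and *IDO1* had the lowest fitted values at week 18, 0.463 and 0.697 of the pre-treatment level, and both were lower in 4 of 5 animals. *IRF1* and *SOCS1* had fitted values of 0.884 and 0.831 and were lower in 3 of 5. Within each gene the animals took a larger share of the variance than the time points, but for *CXCL10* the shares were close, 30.4% and 29.2%. A factor with 5 levels takes more by chance than one with 3, so the shares alone do not rank animal above time point. Levels are given as CPM, the count of a gene relative to the TMM-scaled total of its library, which does not correct for gene length, so they are compared between samples and not between genes.

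*IRF1*, the transcription factor, was measured with 1821 to 7032 counts per library. Before treatment it had 794 CPM in Z13076, 409 in Z15228, 464 in Z15303, 450.4 in Z15339 and 414 in Z15408. In that order the animals had 579, 456, 336, 480.2 and 556 CPM at week 12. At week 18 they had 421, 459, 382, 388 and 587 CPM. The pre-treatment library of Z13076 stood far above the other 4, which lay within 409 to 464 CPM, and the 3 time points overlapped. The mean ± SD (n = 5) in order of time was 506 ± 162, 481 ± 96.1 and 447 ± 84.0 CPM. The log2 fold change was −0.07 at week 12 (standard error, SE, 0.20, adjusted p = 1 by edgeR) and −0.18 at week 18 (SE 0.20, adjusted p = 1 by edgeR). The 95% intervals, −0.49 to 0.35 and −0.60 to 0.24, leave room for a change in either direction. The sign rested on single animals: without Z13076 the log2 fold changes were 0.07 at week 12 and 0.06 at week 18. The week 12 value without Z15303 was also above 0, at 0.01. Within animals, *IRF1* was higher at week 18 in Z15408, by 0.51 on the log2 scale, and lower in Z13076, at −0.91.

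*CXCL9*, the first of the chemokines, was close to undetected. It had 21 counts over the 15 libraries and 0 in 7 of them. Before treatment there were 3 counts in Z13076, 4 in Z15408 and 0 in the other animals. At week 12 there were 3 in Z15228, 2 in Z15408, 1 in Z15339 and 0 in the others, and at week 18 there were 3, 3 and 2 in Z15228, Z15408 and Z15339 and 0 in the others. Z15303 had no count at any time point. A count of 0 allows up to 3 counts, which is 0.301 to 0.554 CPM in these libraries, and at this depth no difference between time points was detectable. The mean within-animal difference on the log2 CPM scale, with a prior count of 2, was −0.04 ± 0.98 at week 12 and 0.16 ± 1.06 at week 18 (SD, n = 5). The two-sided exact sign-flip test gave p = 0.875 for both. With 5 animals the smallest value it allows is 0.0625. For *CXCL9* that limit was higher, because the difference of Z15303 was 0 and flipping its sign changes nothing.

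*CXCL10*, the other chemokine, was counted with 13 to 99 reads per library, so counting error alone is 27.7% in the lowest. Before treatment it had 11.2 CPM in Z13076, 2.98 in Z15228, 7.43 in Z15303, 3.82 in Z15339 and 4.22 in Z15408. In that order the values were 5.18, 1.35, 3.14, 3.42 and 6.42 CPM at week 12. At week 18 they were 1.83, 1.94, 2.84, 4.70 and 2.33 CPM. Z13076 and Z15303, with the highest levels before treatment, and Z15228, with the lowest, were lower at both later time points, Z15339 kept within 3.42 to 4.70 CPM, and the groups overlapped. The mean ± SD (n = 5) in order of time was 5.93 ± 3.38, 3.90 ± 1.96 and 2.73 ± 1.17 CPM. At week 12 the log2 fold change was −0.60 (SE 0.43, adjusted p = 1 by edgeR), lower in 4 of 5 animals. At week 18 it was −1.11 (SE 0.44, 95% interval −2.05 to −0.18, adjusted p = 1 by edgeR), again lower in 4 of 5. With the animal as a block the value at week 18 was −1.03 (SE 0.36, adjusted p = 0.65 by edgeR). In the fit with no block, leaving out Z13076 moved the week 18 value to −0.64 and leaving out Z15339 moved it to −1.53. At week 12 the value was −0.36 without Z13076 and −0.96 without Z15408.

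*IDO1*, the enzyme of tryptophan breakdown, had 185 to 932 counts per library. Before treatment it had 105 CPM in Z13076, 35.4 in Z15228, 102 in Z15303, 69.6 in Z15339 and 51.7 in Z15408. In that order the values were 54.4, 27.0, 46.5, 88.4 and 72.0 CPM at week 12. At week 18 they were 52.5, 24.0, 60.1, 65.2 and 51.8 CPM. Z15228 had the lowest level of the 5 animals at every time point, Z15339 and Z15408 were at their own highest at week 12, and the groups overlapped. The mean ± SD (n = 5) in order of time was 72.8 ± 30.6, 57.7 ± 23.6 and 50.7 ± 15.9 CPM. The log2 fold change was −0.33 at week 12 (SE 0.34, adjusted p = 1 by edgeR) and −0.52 at week 18 (SE 0.34, adjusted p = 1 by edgeR). With the animal as a block the week 18 value was also −0.52, with a SE of 0.18 and an interval of −0.91 to −0.14 (edgeR adjusted p = 0.641). It was lower in 4 of 5 animals, and Z15408 was level, at 0.003 on the log2 scale. The week 12 value was −0.11 without Z15303 and −0.56 without Z15339.

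*SOCS1*, the feedback inhibitor, had 65 to 322 counts per library. Before treatment it had 16.9 CPM in Z13076, 33.1 in Z15228, 10.8 in Z15303, 12.7 in Z15339 and 16.1 in Z15408. In that order the values were 11.9, 12.4, 14.6, 21.3 and 25.9 CPM at week 12. At week 18 they were 12.9, 8.42, 18.1, 22.5 and 12.6 CPM. The pre-treatment library of Z15228 was the highest of the 15 and the week 18 library of the same animal the lowest, while Z15303 and Z15339 were higher at both later time points. The mean ± SD (n = 5) in order of time was 17.9 ± 8.85, 17.2 ± 6.13 and 14.9 ± 5.46 CPM. The log2 fold change was −0.06 at week 12 and −0.27 at week 18 (SE 0.32 and 0.32, edgeR adjusted p = 1 for both). Without Z15228 these values were 0.40 and 0.24, and without Z13076 the week 12 value was 0.03, so 1 animal turned the sign at each time point. The 3 animals sampled on the same dates had mean within-animal differences of 0.62 at week 12 and 0.40 at week 18, and the other 2 had −0.95 and −1.16.

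**Figure D1:**
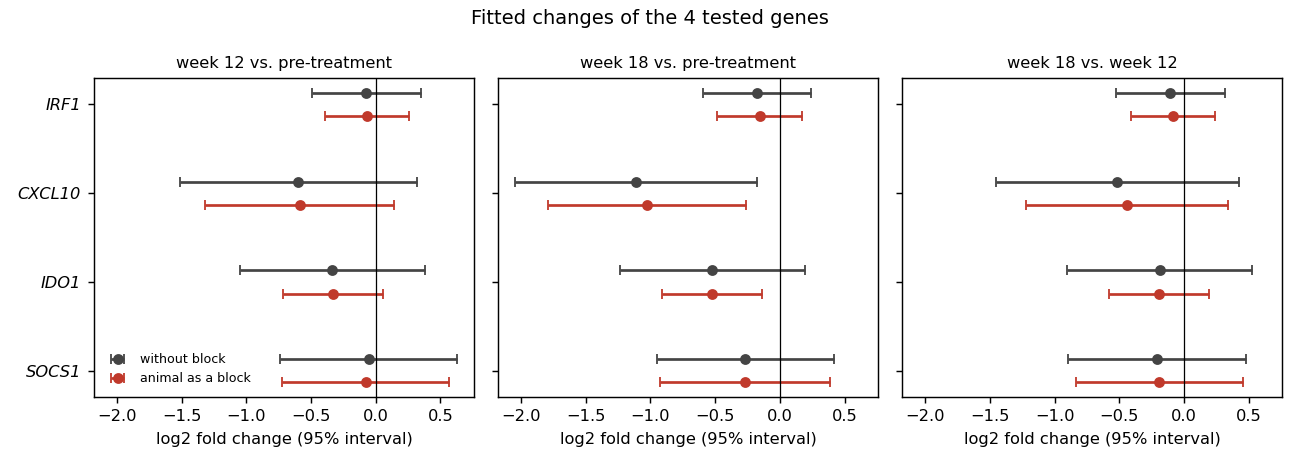
Fitted log2 fold changes (x axis) of the 4 tested genes (y axis) in the 3 comparisons, as points with 95% intervals, from edgeR with the time point alone (grey) and with the animal as a block (red). All 12 values without the block lie below 0, from −1.11 to −0.06. Of the 12880 features, 6310 are below 0 at week 12, 6413 at week 18 and 6579 between them. The comparisons share libraries, so the 12 values are not independent. The interval leaves out 0 for *CXCL10* at week 18 in both fits and for *IDO1* at week 18 with the block. The intervals are not adjusted for the number of features tested, and neither gene passed after adjustment.

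The counts over these genes stand beside those of the whole table. At week 12, edgeR without a block called 0 of the 4 tested genes and 0 of the 12880 features (0%) at an adjusted p of 0.05, and with the block it called 0 of the 4 and 1 feature of the table (0.00776%). An unadjusted p under 0.05 was found for 0 of the 4 in both fits, against 1.61% of all features without the block and 4.69% with it. At week 18, again 0 of the 4 passed, beside 0% of all features without the block and 0.00776% with it. An unadjusted p under 0.05 was found for *CXCL10* without the block, against 1.69% of all features, and for *CXCL10* and *IDO1* with it, against 5.85%. DESeq2's Wald test called none of the 4 genes in any comparison, and it called 1 feature of the table at week 12 and 0 at week 18 without the block, and 27 and 43 with it. The median log2 fold change of the 4 genes was −0.20 at week 12 and −0.39 at week 18, where the median of all features was 0.00 at both. The week 12 median was −0.06 without Z13076, −0.12 without Z15303, −0.40 without Z15339 and −0.41 without Z15408. The week 18 median lay between −0.30, without Z13076, and −0.61, without Z15339. Both comparisons use the same pre-treatment libraries, so a high pre-treatment value enters both.

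From week 12 to week 18 the 4 genes had log2 fold changes of −0.11 for *IRF1*, −0.52 for *CXCL10*, −0.19 for *IDO1* and −0.21 for *SOCS1*, with SE of 0.20, 0.44, 0.34 and 0.32. The edgeR adjusted p was 1 for each, with and without the block. None of the 4 had an unadjusted p under 0.05 in either fit, against 0.505% of all features without the block and 2.17% with it, and 0% of features were called at an adjusted p of 0.05 in both. DESeq2 called 0 features without the block and 1 with it. *CXCL10* differed most between animals, at −1.39 in Z13076, −1.38 in Z15408 and 0.46 in Z15228 on the log2 scale. Without Z15408 its log2 fold change was −0.20 and without Z15339 it was −0.86. That of *SOCS1* was 0.04 without Z15408, and that of *IRF1* was −0.01 without Z13076. For *IDO1* it lay between −0.32, without Z15303, and −0.09, without Z15339.

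The direction differed between animals. At week 12 all 4 genes were lower than before treatment in Z13076, 3 of 4 in Z15228 and in Z15303, 1 of 4 in Z15339 and 0 of 4 in Z15408. The median within-animal difference of the 4 genes was −0.72, −0.70, −0.80, 0.22 and 0.53 in these animals. At week 18 the medians were −0.96, −0.56, −0.52, 0.09 and −0.17, with all 4 genes lower in Z13076 and 2 of 4 in Z15339 and in Z15408. The mean of the 3 animals with the same dates and that of the other 2 had the same sign for *CXCL10* and *IDO1*. For *CXCL10* they were −0.25 and −1.05 at week 12 and −0.61 and −1.51 at week 18, and for *IDO1* −0.10 and −0.67, and −0.28 and −0.78. For *IRF1* they were 0.02 and −0.15 at week 12 and 0.002 and −0.37 at week 18. The difference between these groups of animals was not tested.

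Of the variance of log2 CPM over the 15 libraries, the animal took 68.1% for *IDO1*, 44.2% for *IRF1*, 30.4% for *CXCL10* and 10.1% for *SOCS1*, where the median over all tested features was 51.9%. The time point took 29.2% for *CXCL10*, 11.3% for *IDO1*, 4.28% for *IRF1* and 4.23% for *SOCS1*, against a median of 6.23%. For *SOCS1* the remaining 85.7% was tied to neither. *IDO1* was thus the gene whose level marked the animal most, and *SOCS1* the one whose level marked it least among the 4.

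**Figure D2:**
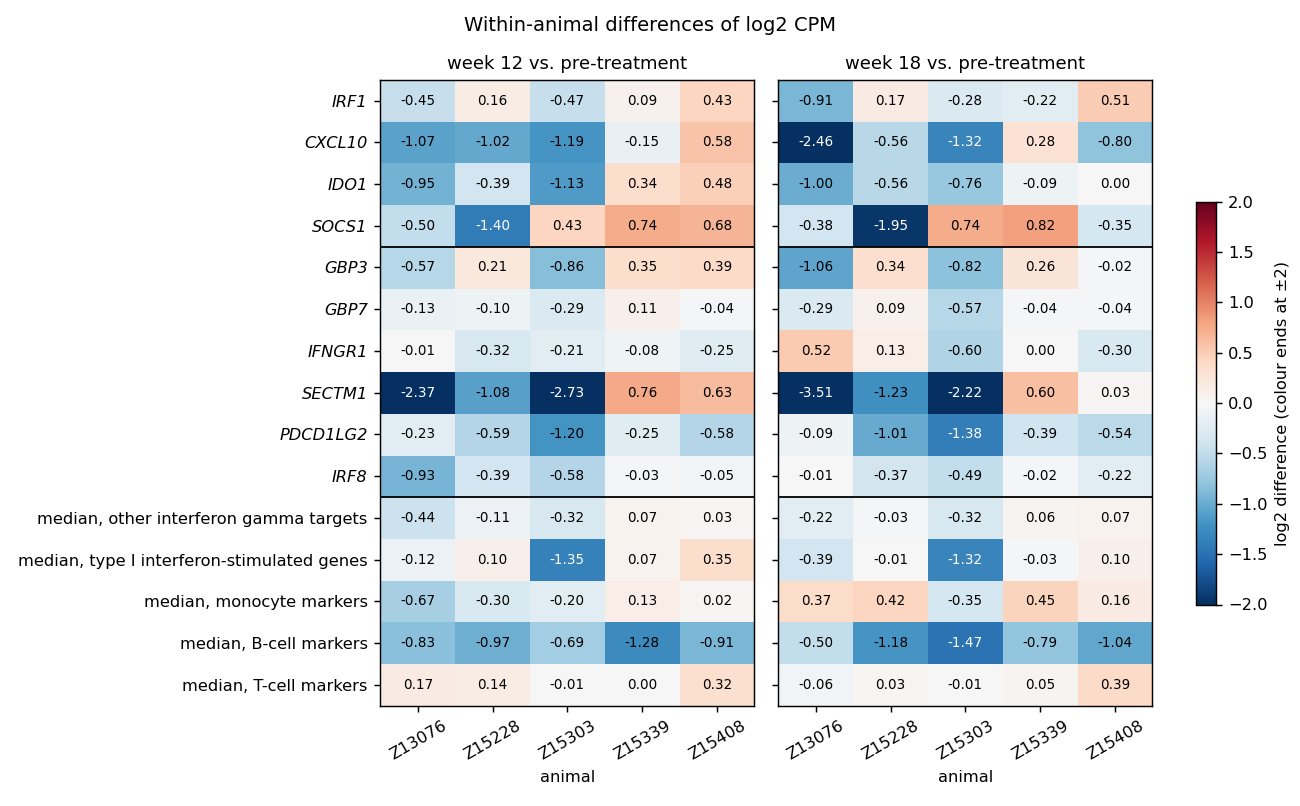
Within-animal differences of log2 CPM from pre-treatment to week 12 (left) and to week 18 (right), with animals as columns, the 4 tested genes and 6 further genes of the pathway as rows, and the medians of 5 gene lists at the bottom. Red cells are higher and blue cells lower than before treatment, and at week 12 *CXCL10* and *IDO1* are below −0.9 in both Z13076 and Z15303, while the type I interferon list is at −1.35 in Z15303 alone.

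The upstream part of the pathway was described by 8 genes of the ligand, the receptor chains, the kinases and inhibitors of the signal. All 8 were tested and none passed an adjusted p of 0.05 in edgeR at any time point, and their median log2 fold change was −0.11 and −0.07 at weeks 12 and 18. *IFNG*, the cytokine itself, had 4 to 24 counts per library, with a mean ± SD (n = 5) of 1.42 ± 0.462 CPM in the pre-treatment libraries and 1.53 ± 0.686 in those of week 12. Its log2 fold change was 0.12 at week 12 (SE 0.40) and 0.03 at week 18 (SE 0.40). *IFNGR1*, the chain that binds the cytokine, had 131 ± 14.01, 116 ± 14.3 and 130.3 ± 39.6 CPM in order of time. It was lower at week 12 in 5 of 5 animals, by 0.008 to 0.32 on the log2 scale, with a log2 fold change of −0.17 (SE 0.17, adjusted p = 1 by edgeR and 0.982 with the block). Over the table, 3.45% of features were lower in 5 of 5 animals at week 12.

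*GBP3* and *GBP7* are the guanylate-binding proteins with a row of that name that were tested, and they are given, chosen after their values were seen, beside the 4 such genes not analysed here. Reads that fit several genes of this family equally well are not counted by a counter that takes unique alignments, so levels within the family are uncertain. *GBP3* had 501, 174, 331, 200 and 248 CPM before treatment in Z13076, Z15228, Z15303, Z15339 and Z15408. At week 12 it had 338, 202, 183, 255 and 325 CPM, and at week 18 240.2, 221, 188, 240.1 and 244 CPM. Its pre-treatment values covered both later groups, and its week 18 values lay close together, with an SD of 23.7 CPM against 132 before treatment. The log2 fold change of *GBP3* was −0.16 at week 12 and −0.36 at week 18 (SE 0.25 and 0.25, edgeR adjusted p = 1 for both). *GBP7* had means ± SD (n = 5) of 47.8 ± 14.7, 45.1 ± 14.02 and 42.7 ± 12.6 CPM in order of time, with log2 fold changes of −0.08 and −0.16.

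A list of 40 further interferon gamma targets had 34 genes with a row, and 31 were tested. None passed an adjusted p of 0.05 in edgeR at any time point, with or without the block. The median log2 fold change of the list was −0.10 at week 12, with 21 of 31 genes below 0, and −0.13 at week 18, with 24 of 31 below 0, where 6310 and 6413 of the 12880 features were below 0. Without the block 1 gene had an unadjusted p under 0.05 at each time point, and with it 3 at week 12 and 4 at week 18, all lower. The shares over all features were 1.61% and 1.69% without the block and 4.69% and 5.85% with it, in either direction. The 3 genes with the largest absolute log2 fold change at week 12 were *SECTM1*, *PDCD1LG2* and *IRF8*.

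*PDCD1LG2* encodes PD-L2, a ligand of the inhibitory T-cell receptor PD-1. Before treatment it had 13.4 CPM in Z13076, 15.4 in Z15228, 26.6 in Z15303, 14.2 in Z15339 and 15.4 in Z15408. At week 12 the values in that order were 11.4, 10.2, 11.4, 11.9 and 10.2 CPM, and at week 18 they were 12.6, 7.51, 10.1, 10.7 and 10.52 CPM. No week 12 or week 18 library reached the lowest pre-treatment library, which held for 0.163% of features at week 12 and 0.202% at week 18, and it was lower in 5 of 5 animals, as were 3.45% and 3.49% of features. The log2 fold change was −0.62 at week 12 (SE 0.19) and −0.72 at week 18 (SE 0.19). The adjusted p by edgeR was 1 for both, and 0.568 and 0.26 with the block, so it did not pass over the whole table. The gene was named for the size of its week 12 value, and week 18 shares the pre-treatment libraries with it.

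*SECTM1*, which encodes a small membrane and secreted protein that binds CD7, had the largest log2 fold changes of the list, −1.05 at week 12 (SE 0.76) and −1.46 at week 18 (SE 0.78), neither of which passed (adjusted p = 1 by edgeR for both). These rest on 2 to 108 counts per library. It was lower in Z13076, Z15228 and Z15303 at both time points and higher in Z15339 at both. In Z15408 it was higher at week 12, by 0.63 on the log2 scale, and level at week 18, at 0.03. *IRF8*, a transcription factor of monocytes, dendritic cells and B-cells, had a log2 fold change of −0.42 at week 12 (SE 0.30) and −0.21 at week 18 (SE 0.30). It was lower in 5 of 5 animals at both, by 0.01 to 0.93 on the log2 scale, as were 3.45% and 3.49% of all features. The edgeR adjusted p was 1, and 0.765 and 0.883 with the block. *IRF8* too was named for the size of its week 12 value. It is also on the list of plasmacytoid dendritic cell markers.

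Type I interferon-stimulated genes were set beside these because the responses share genes. Of 41 listed, 34 were tested, none passed in edgeR, and the median log2 fold change was −0.24 at week 12 and −0.34 at week 18. Z15303 had a median within-animal difference of −1.35 over these genes at week 12, against −0.12 to 0.35 for the remaining 4 animals. At week 18 it was −1.32 in Z15303, against −0.39 to 0.095 for those 4. The 4 interferon gamma response genes also had their lowest median in Z15303 and their highest in Z15408 at week 12, but with −0.72 and −0.70 in Z13076 and Z15228 beside −0.80 in Z15303. Whether the 2 lists differ was not tested.

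The 4 genes varied together in part. These correlations of log2 CPM are a description over 15 libraries that come from 5 animals and share depth and cell makeup. *CXCL10* and *IDO1* had a Pearson r of 0.791 (Spearman rho 0.75, r = 0.662 without the 2 libraries farthest from the median), and 0.761 after each animal's mean was removed. *IRF1* had an r of 0.498 with *CXCL10* and of 0.375 with *IDO1*, which were 0.193 and 0.111 without the 2 farthest libraries, so over all libraries these rest on those, and 0.577 and 0.701 after each animal's mean was removed. With *GBP3* it had 0.829 (Spearman rho 0.789, and 0.627 without the 2 farthest). *SOCS1* had an r of −0.09 with *IRF1* and −0.08 with *GBP3*.

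**Figure D3:**
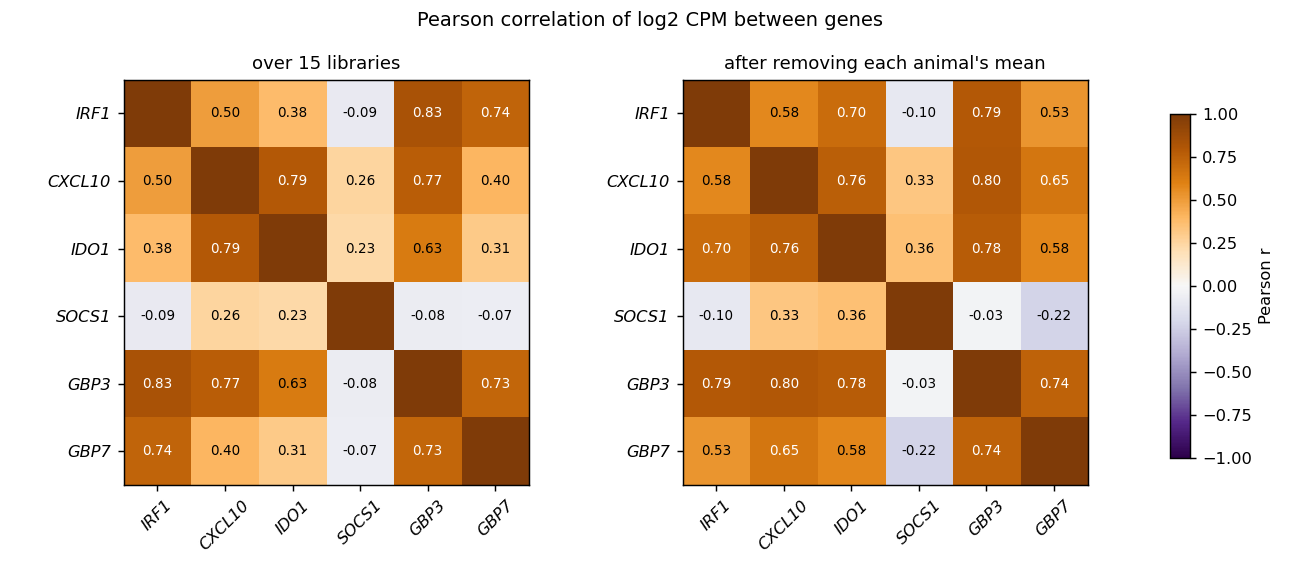
Pearson correlation of log2 CPM between the 4 tested genes, *GBP3* and *GBP7* over the 15 libraries (left) and after each animal's mean was removed (right), with the value in each cell. *GBP3* has values of 0.63 or more with *IRF1*, *CXCL10*, *IDO1* and *GBP7* in both panels, and *SOCS1* lies between −0.22 and 0.36 with all 5.

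The mean of the standardised log2 CPM of the 4 genes was highest in the pre-treatment library of Z13076 (1.55) and lowest in the week 18 library of Z15228 (−1.20). The 8 tested features outside the set most like this mean over the 15 libraries were *SECTM1*, *IRF7*, *APOL6*, ENSMNEG00000043001, *PALLD*, *UBE2L3*, *TRIM27* and *GBP3*. They are the highest of 12876 features over only 15 libraries, so picking them by itself gives high values of r. Whether these exceed what such picking gives by chance was not tested. *SECTM1* led with a Pearson r of 0.929 (Spearman rho 0.943, and 0.865 without the 2 farthest libraries) and also ranked 1 after each animal's mean was removed (r = 0.937). *IRF7*, a transcription factor of the type I interferon response, followed at 0.838 and *APOL6*, an apolipoprotein L gene, at 0.822, and *GBP3* closed the list at 0.756. After each animal's mean was removed, *SECTM1* and *APOL6* were the 2 of these 8 still among the 8 most alike. The median r with the mean was 0.322 over the 31 further interferon gamma targets, 0.417 over the 34 type I interferon-stimulated genes, −0.11 over the 8 upstream genes and −0.006 over all features.

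In PBMC RNA, fewer cells of a type and less RNA per cell cannot be told apart. Of 14 markers of monocytes, the strong responders, 13 have a row and none of these was at 0 in all libraries, and their summed level ranged from 4108 to 7729 CPM before treatment, 4706 to 6346 at week 12 and 5461 to 9124 at week 18. *CD14* had a log2 fold change of −0.10 at week 12 and 0.59 at week 18 (SE 0.32 and 0.32, edgeR adjusted p = 1 for both). The week 18 value was the highest of the 13 markers. Their median was −0.23 and 0.19, with 10 of 13 below 0 at week 12 and 4 of 13 at week 18. The 10 B-cell markers summed to 257 to 1075 CPM before treatment, 146 to 543 at week 12 and 188 to 450.4 at week 18, with a median log2 fold change over the 9 tested of −1.002 and −1.05. *MS4A1*, which encodes CD20, had −1.13 and −1.17 (edgeR adjusted p = 1 for both, and 0.0768 and 0.0534 with the block). It was lower in 5 of 5 animals at both, as were 3.45% and 3.49% of all features. The 10 T-cell markers summed to 2603 to 3865 CPM before treatment, 3054 to 4280 at week 12 and 3148 to 3580 at week 18. Their median log2 fold change was 0.13 and 0.09. *CD3E* had the highest of the 10 at both time points, 0.27 and 0.39 (SE 0.65 and 0.65). The 9 NK and cytotoxic markers with a row summed to 3549 to 7907 CPM before treatment, 4657 to 10280 at week 12 and 4714 to 7858 at week 18, with a median log2 fold change of 0.15 and −0.12. The 6 plasmacytoid dendritic cell markers with a row summed to 2040 to 4458, 2568 to 5623 and 2623 to 4226 CPM in order of time, but most of this was *GZMB* (granzyme B), which is also on the NK and cytotoxic list, with means ± SD (n = 5) of 3340 ± 977, 3851 ± 1151 and 2995 ± 640 CPM. *LILRA4*, a receptor of plasmacytoid dendritic cells, had 54.8 ± 24.6, 49.0 ± 10.06 and 40.7 ± 17.6 CPM. Over the 6 markers the median log2 fold change was −0.27 at week 12 and −0.22 at week 18. At week 12, 4 of the 6 were below 0, and at week 18, 5 of the 6. Neutrophil markers, 9 of 12 with a row, summed to 202 to 411 CPM before treatment, 211 to 462 at week 12 and 288 to 626 at week 18. Most of this was *CSF3R*, with means of 168, 140 and 214 CPM in order of time, and *CAMP*, with 98.2, 105 and 130 CPM. The median log2 fold change of the 9 neutrophil markers was −0.19 at week 12 and 0.35 at week 18. The part of these cell types in the values of the interferon gamma response genes was not tested.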

How the data were processed

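PBMC RNA from 5 animals at 3 time points was sequenced from SMART-Seq v4 and Nextera XT libraries, which do not mark strand, so reads of a gene and of an antisense partner cannot be told apart. The authors aligned the reads to the Ensembl *M. nemestrina* genome with STAR 2.7.9a and deposited raw read counts per gene, without normalization. Genes were matched by exact name. Counts were scaled by TMM and filtered by filterByExpr (minimum count 10) in R 4.3.3 with edgeR 4.0.16, and tested by edgeR's quasi-likelihood F test over all 15 libraries and 12880 features with no term but the time point, adjusted by the Benjamini-Hochberg method (threshold 0.05). Standard errors were the absolute log2 fold change over the square root of F. Log2 CPM used a prior count of 2. The pairing comes from the subject label. Libraries of the same animal had correlated deviations from their group means (mean 0.551 over 15 pairs, lowest 0.351). The mean was −0.137 over 60 pairs of different animal and time point. Taking out group means largely fixes that second value, so it is not a separate check of the pairing. The animal as a block is the alternative given beside each result it bears on. *CXCL9*, below the filter, had an exact two-sided sign-flip test. Further alternatives were DESeq2 1.42.0 (with and without the block), its size factors, library size alone, no filter, another prior count for *CXCL9*, and each animal left out in turn. The fits were tested on simulated data. Counting errors and floors of single libraries cover counting error only. The genes and lists were chosen with earlier results of these data known. Named from them were all members, *IFNG*, *IFNGR1*, the 3 further targets with the largest absolute week 12 value, *CD14*, *MS4A1*, *CD3E* and the 8 features most like the mean of the tested members. *GBP7*, *GZMB*, *LILRA4*, *CSF3R* and *CAMP* were named besides these. The 4 guanylate-binding proteins without a row of their name are not analysed here. An item kept back for evaluations is not reported here.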

Additional observations from a re-analysis of the deposited data

Results flagged for a closer look

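Of the 24 groups of 5 libraries examined for a library far from the others, 2 had one by Dixon's test at the 95% level, where chance gives about 1 in 20. *IRF1* in Z13076 before treatment was at 9.63 on the log2 CPM scale, with the next library at 8.86, a gap of 0.808 of the group's range. *IDO1* in Z15228 at week 18 was at 4.60, with the next library at 5.70, a gap of 0.77 of the range.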

How the results depend on the processing

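Across DESeq2 with and without the block, edgeR with the block, DESeq2's size factors, library size alone and no filter, the 72 values of *IRF1*, *CXCL10*, *IDO1* and *SOCS1* in the 3 comparisons all kept their direction and none passed (smallest adjusted p 0.423, for *CXCL10* at week 18 in DESeq2 with the block). Over all features, edgeR with the animal as a block (paired) called 1 at week 12 and 1 at week 18, DESeq2 without a block 1 at week 12, and DESeq2 with the block 27 at week 12, 43 at week 18 and 1 between them, against 0 in edgeR without a block. The block changed no other call. With 1 animal left out, the log2 fold change of *IRF1* ranged from −0.19 to 0.073 at week 12 and −0.36 to 0.0637 at week 18, and with the block from −0.18 to 0.045 and −0.31 to 0.0354. That of *SOCS1* ranged from −0.28 to 0.40 at week 12, −0.57 to 0.24 at week 18 and −0.34 to 0.0407 between them, and with the block from −0.30 to 0.36, −0.54 to 0.22 and −0.33 to 0.0522. *CXCL10* and *IDO1* stayed below 0 in every such fit. With a prior count of 0.5 the week 12 difference of *CXCL9* was 0.0854 in place of −0.04. Of the 8 features most like the mean of the members, 2 were shared after each animal's mean was removed. The cause of these shifts was not tested. Counts of 13 to 99 for *CXCL10* and 0 to 4 for *CXCL9* limit what could be seen, as do 5 animals.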
